A study of Mus musculus with 6 samples.

Results

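The genes described here are 42 genes of endoplasmic reticulum (ER) folding and procollagen secretion, taken by gene symbol from the 26130 genes of one count table. All 42 symbols matched 1 row each. The cells were sorted as mouse skeletal stem cells from the digested Achilles tendon-to-bone interface of C57BL/6 mice, at post injury day 7. There were 2 libraries of sham control cells, 1 library of uninjured cells and 3 libraries of injured cells, where the injury was a partial one at that interface, and no other allele or agent is named for any group. The library labelled uninjured carries a sham name in its description field, so it was kept apart in the main comparison, injured against sham control, and joined to the sham libraries in the other comparison, injured against all non-injured. The sources used here do not give the sham procedure, the sort markers, or whether a library is 1 animal or a pool. All p-values therefore measure spread among these samples alone, and that spread may be technical.

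Secreted and membrane proteins enter the ER through the SEC61 channel, fold there with the help of chaperones and disulfide isomerases, and leave in COPII-coated carriers. Procollagen needs further enzymes, which hydroxylate its prolines and lysines, and a dedicated chaperone, HSP47, that binds the finished triple helix. When unfolded protein builds up, the sensors IRE1, PERK and ATF6 start the unfolded protein response, whose transcription factors XBP1, ATF6 and ATF4 raise the expression of many of these genes. Tendon, bone and fibrocartilage cells secrete collagen in large amounts and depend on this machinery.

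Promoter elements through which the unfolded protein response acts are shown first, because they divide the members by a feature of sequence and not of counts. RefSeq promoter windows (build GRCm38.p6, 250 bases before to 50 bases after the start) were matched for 36 members; Hyou1, Atf6, Sec61a1, Creb3l1, Manf and Fkbp10 had no entry. The ER stress element was searched on both strands as CCAAT, any 9 bases, then CCACG. It was found in 37 of 27025 genes, or 0.137% (exact 95% binomial interval 0.0964% to 0.189%), and in 7 of the 36 members, or 19.4%. Many members are genes that this response raises, as stated above. Their share is therefore given beside that of all genes as a description only, and no test was run. Each window below runs 5′ to 3′ on the gene's strand with the element's fixed letters in capitals; CGTGG before ATTGG is the same element read from the other strand.
Hspa5 (chr2:34772005-34772063, plus strand): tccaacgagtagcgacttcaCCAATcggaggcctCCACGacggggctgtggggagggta
Hsp90b1 (chr10:86705513-86705676, minus strand): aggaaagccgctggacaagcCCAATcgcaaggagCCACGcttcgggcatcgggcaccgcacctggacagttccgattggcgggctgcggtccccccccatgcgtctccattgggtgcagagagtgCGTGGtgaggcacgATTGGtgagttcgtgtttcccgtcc
Calr (chr8:84847055-84847113, minus strand): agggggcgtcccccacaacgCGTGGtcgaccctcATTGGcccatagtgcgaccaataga
Canx (chr11:50325780-50325838, minus strand): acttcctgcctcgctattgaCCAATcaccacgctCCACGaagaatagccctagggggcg
Creld2 (chr15:88819500-88819558, plus strand): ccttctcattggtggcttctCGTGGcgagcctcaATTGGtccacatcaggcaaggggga
Dnajc3 (chr14:118937807-118937865, plus strand): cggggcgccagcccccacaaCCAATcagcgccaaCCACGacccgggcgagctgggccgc
Pdia6 (chr12:17266471-17266529, plus strand): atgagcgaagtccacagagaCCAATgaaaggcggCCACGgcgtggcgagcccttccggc
Hsp90b1 held 2 copies, and the other 6 genes held 1. These genes encode the chaperones BiP and GRP94, the lectin chaperones calreticulin and calnexin, the secreted factor CRELD2, the BiP co-chaperone p58IPK and the disulfide isomerase PDIA6.

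The related element ERSE-II, searched as ATTGG, any 1 base, then CCACG, was found in 12 genes, or 0.0444% of all promoters, and in 2 members. These were Dnajb11, a BiP co-chaperone, where it lies after the start, and Herpud1, a component of ER-associated degradation; capitals mark the element's fixed letters.
Dnajb11 (chr16:22857832-22857882, plus strand): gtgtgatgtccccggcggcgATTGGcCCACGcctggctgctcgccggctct
Herpud1 (chr8:94386357-94386407, plus strand): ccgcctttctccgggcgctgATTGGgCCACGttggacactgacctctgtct
TGACGTGG, the core of the element bound by ATF6 and XBP1, was in 193 genes (0.714%) and in the members Sec23a and Sec24d. The amino acid response element, searched as TGATG, any 1 base, then AA, was in 1219 genes (4.51%) and in 1 member, Herpud1. No matches of different motifs overlapped one another in a member. A match is a description of the letters, not a site or a cause, and a window without one says only that these letters are not in it.

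**Figure D1:**
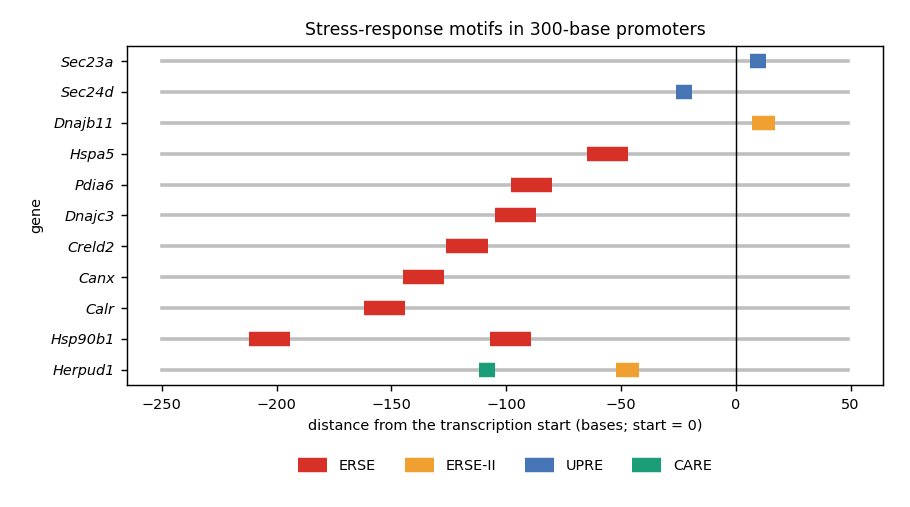
Position of each motif match (x axis, bases from the annotated start) in the promoters of the members that hold one (y axis, genes; grey lines are the windows). ERSE is the ER stress element, UPRE is TGACGTGG and CARE is the amino acid response element; the ER stress element matches of 7 genes all lie before the start.

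Total counts ran from 37506188 to 40483028 in the 3 non-injured libraries and from 46250870 to 51089267 in the injured ones, so every injured library was the deeper, and the part of depth in the results was not tested. Values are counts per 1000000 counts (CPM) scaled by the trimmed mean of M-values (TMM). The least covered member value was 26 counts, of Eif2ak3 in injured 1. All 42 members passed the filter on low counts in both comparisons, and each averaged at least 10 CPM. The cells' labelled identity could be set only against surface genes commonly used for skeletal stem cells: Itgav ranged from 31.1 to 116 CPM and Cd200 from 31.0 to 160.2 CPM over the 6 libraries, while Ptprc, the leukocyte gene CD45, was 0 in sham control 2 and injured 3 and reached 24.8 in injured 1. Genes whose proteins commonly serve to exclude cells from such a sort were uneven. Eng (CD105) was at 201 CPM in sham control 1, 0 in sham control 2, 25.5 in uninjured and 66.1, 26.1 and 5.46 in injured, and Tek (TIE2) at 58.1 and 0.58, 61.7 and 9.28, 4.66 and 9.16 CPM in the same order. Thy1 was at 11.8 and 14.3 CPM in sham control 1 and injured 1 and at 4.38 or less elsewhere, and Enpep ran from 0 in sham control 2 to 16.1 in sham control 1. Transcript levels do not show surface protein, and the part of these differences in the members' values was not tested. Erythroid markers summed to 38765 CPM in sham control 1, 6077 in injured 1 and 593 or less in each other library, and rRNA took 15.05% and 14.75% of counts in those same 2 libraries against 2.89% to 5.32% in the rest.

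The members' summed level was higher in every injured library than in any other. It came to 7626 and 10906 CPM in sham control 1 and 2, to 7550 CPM in the uninjured library, and to 14525, 12471 and 16946 CPM in injured 1, 2 and 3. The sum gives most weight to the most counted genes. As a mean of log2(CPM + 1) over the 42 members, which weighs each gene alike, the level was 6.95 ± 0.45 (SD, n = 2) in sham control, 6.70 in the uninjured library and 7.40 ± 0.29 (SD, n = 3) in injured, and injured 1 (7.17) lay below sham control 2 (7.27). Because these are bulk samples, fewer cells of a type and less RNA per cell cannot be told apart.

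Sham control 1 stood apart from sham control 2 within its own group. Of the 42 members, 37 were lower in sham control 1 than in sham control 2, and the median ratio of the second to the first was 1.55. Sham control 1 held the lowest value of 17 members and the uninjured library that of 15, while injured 3 held the highest value of 24. The uninjured library lay below both sham libraries for 17 members, between them for 21 and above both for 4. These spreads set the errors of every fold below.

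**Figure D2:**
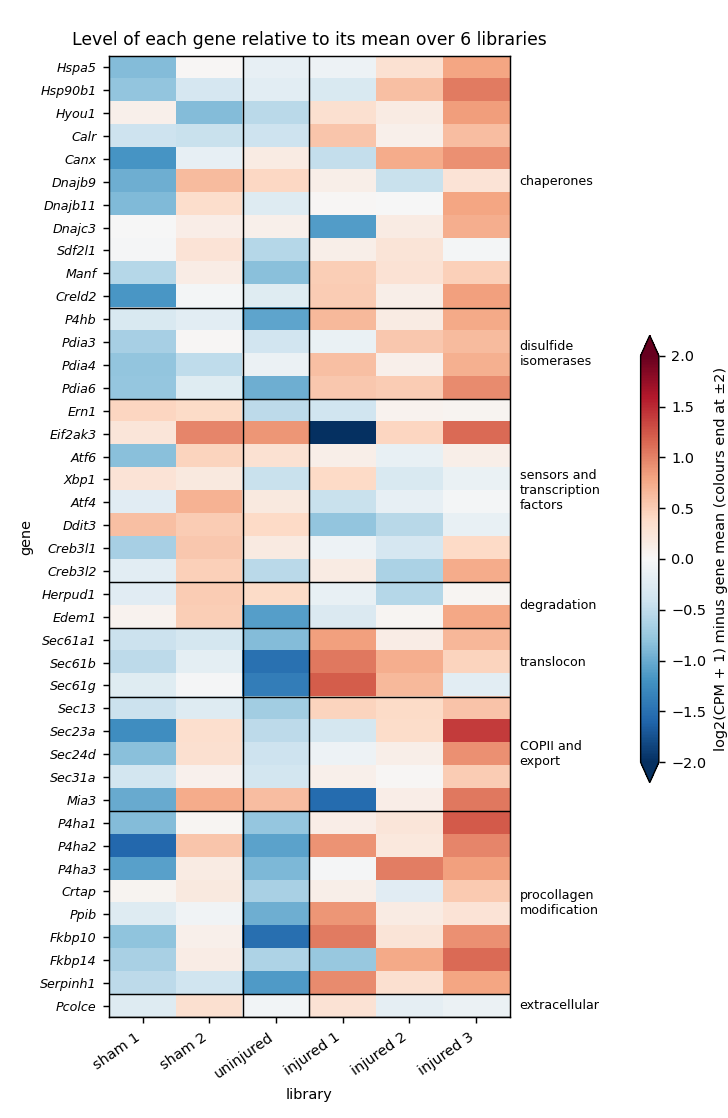
Level of each of the 42 members (rows, grouped by role) in each library (columns), as log2(CPM + 1) minus that member's mean over the 6 libraries (colour; red is higher). Sham control 1 and the uninjured library hold most of the lowest values, and injured 3 holds 24 of the highest.

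By role, the higher log2 fold changes against sham control were those of disulfide isomerases (median 0.97), translocon subunits (0.97) and procollagen hydroxylation and folding genes (0.93), followed by chaperones (0.73) and the COPII coat (0.52), while the median was -0.30 for stress sensors and transcription factors and -0.22 for ER-associated degradation. In that comparison no member passed edgeR's quasi-likelihood test after Benjamini-Hochberg adjustment over 16752 genes; the test called 0 genes (0%) in all, and the smallest adjusted p of a member was 0.865. DESeq2, run on the same genes, called 369 (2.2%), of which 0 were members. Before adjustment, edgeR's p was under 0.05 for 4 members, all higher in injured (Pdia4, Pdia6, Sec61b and Serpinh1), which is 9.52% of the members against 2.44% of all genes tested. In the lower direction it was so for 0 members and 2.2% of all genes. Members and lists were chosen with earlier results of these data known. Such shares, here and below, are therefore a description only. All injured libraries lay above both sham libraries for 15 members, or 35.7%, against 11.9% of all genes tested and 13.6% of those averaging at least 10 CPM. They lay below both for 2 members, Ern1 and Ddit3, against 9.12% of all genes, and the groups overlapped for the other 25. The log2 fold change was above 0 for 31 of 42 members (73.8%), against 53.7% of genes averaging at least 10 CPM, and its median was 0.65 over the members and 0.09 over all genes tested. Leaving out single libraries moved these values, and the shares over all genes with them. Without sham control 1 the members' median was 0.30, beside 0.25 for all genes, and 0 members had an unadjusted p under 0.05 in the higher direction, against 4.23% of all genes. Without sham control 2 the median was 0.96, beside 0.29 for all genes. In that setting 7 members (16.7%) had such a p, against 7.21% of all genes, and 29 members (69.0%) had all injured libraries above the one sham library, against 28.6%. Each of these fits leaves 1 sham library, which is assumed to vary as the injured ones do, since the spread then comes from the injured group alone. Without injured 2, or without injured 3, 1 member (2.38%) had an unadjusted p under 0.05 in the higher direction, against 1.17% of all genes.

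In injured against all non-injured, edgeR's test likewise called 0 of 14110 genes (0%), and the smallest adjusted p of a member was 0.452. DESeq2 called 345 (2.45%), among them 2 members, Pdia6 and Serpinh1, both higher. An unadjusted edgeR p under 0.05 was found for 11 members in the higher direction, or 26.2%, against 3.71% of all genes, and for 0 in the lower direction, against 3.72%. All injured libraries exceeded all 3 others for 14 members, or 33.3%, against 9.23% of all genes tested and 10.1% of those averaging at least 10 CPM. Ddit3 alone had all injured values below the others, where 7.07% of all genes did. The fold was above 0 for 31 members, against 52.3% of genes averaging at least 10 CPM, with a median log2 fold change of 0.74 over the members and 0.00 over all genes. Without the uninjured library, 5 members (11.9%) had an unadjusted p under 0.05 in the higher direction, against 3.24% of all genes. Without sham control 1 the number was 7 (16.7% against 5.8%), and without injured 3 it was 6 (14.3% against 2.84%), where the median was 0.44. All injured libraries were above the others for 23 members (54.8%, against 15.3% of all genes) without sham control 2 and for 22 (52.4%, against 15.4%) without injured 1. This comparison shares the injured and sham libraries with the main one, so its values are given beside those and not as further support.

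**Figure D3:**
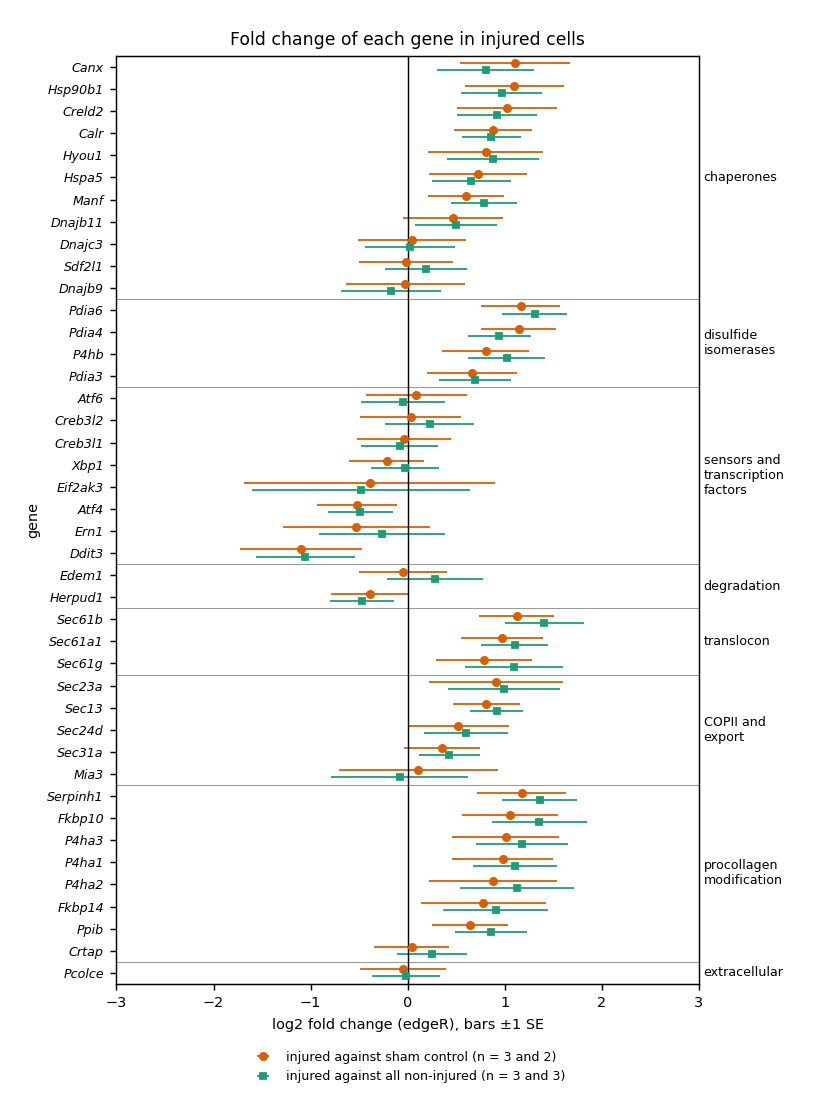
Log2 fold change with its standard error (x axis) of each member (rows, grouped by role) in injured against sham control and injured against all non-injured. The folds run from -1.10 to 1.17 in the first comparison and from -1.05 to 1.41 in the second.

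Among the 11 chaperones and co-chaperones, 9 had a fold above 0 in the main comparison, and the median log2 fold change was 0.73. All injured libraries lay above both sham libraries for 5 of them (45.5%), against 11.9% of all genes tested. Against all non-injured, 10 had a fold above 0 and the median was 0.79. Calr, the calcium-binding lectin chaperone calreticulin, stood at 374 and 367 CPM in sham control 1 and 2, 377 in uninjured and 733, 538 and 773 in injured 1, 2 and 3. The non-injured values lay close together and every injured value was above them. Its mean was 371 ± 5.08 CPM (SD, n = 2) in sham control and 681 ± 126 (SD, n = 3) in injured, a log2 fold change of 0.88 ± 0.40 (SE) with an adjusted p of 0.865 in edgeR's test. The annotation names a Calr pseudogene, whose reads the counting could have split from it.

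Hsp90b1, which encodes GRP94, the ER form of HSP90, was counted at 219 and 299 CPM in the sham libraries, 327 in the uninjured one and 308, 572 and 781 in the injured ones. All injured values exceeded both sham values, but injured 1 lay below the uninjured library. The log2 fold change was 1.10 ± 0.51 (SE) against sham control and 0.97 ± 0.42 against all non-injured. Canx, the membrane-bound lectin chaperone calnexin, was at 80.3 and 163 CPM in sham control, 205 in uninjured and 132, 309 and 345 in injured, where injured 1 fell between the sham libraries, and its log2 fold change was 1.11 ± 0.57. Creld2, a secreted ER factor, gave 19.6 and 43.8 CPM in sham control, 37.98 in uninjured and 64.1, 49.0 and 80.0 in injured, with no overlap and a log2 fold change of 1.02 ± 0.51.

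Hspa5 encodes BiP, the HSP70 chaperone of the ER whose release from the sensors sets off the response. It is outside the rule by which members are given in full and was chosen after its values were seen, because its promoter element is shown above. Its values were 436 and 807 CPM in sham control, 710.1 in uninjured and 737, 978 and 1368 in injured, so that injured 1 lay below sham control 2, and the log2 fold change was 0.73 ± 0.51 (SE). Of the remaining chaperones, Hyou1 and Manf had all injured libraries above all others, with log2 fold changes of 0.80 and 0.60 against sham control, and Dnajb11 had 0.46. The other 3, Dnajc3, Sdf2l1 and Dnajb9, lay between -0.02 and 0.04, and their groups overlapped. Dnajb9 encodes ERdj4, a co-chaperone often used to read IRE1 activity.

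By promoter, the 7 members with the ER stress element had a median log2 fold change of 1.02 against sham control, from 0.04 to 1.16, and all 7 were above 0. The 29 members with a promoter but without the element had a median of 0.46, from -1.10 to 1.17, with 19 above 0. Against all non-injured the medians were 0.86 with the element and 0.49 without it, with 7 of 7 and 20 of 29 folds above 0. The range with the element lay within the range without it, and these medians are a description with no test. The split follows role in part. All members with the element are chaperones, co-chaperones or a disulfide isomerase, while those without it include stress sensors, degradation genes and Pcolce. The part of role in these medians was not tested.

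All 4 protein disulfide isomerases, which form and reshuffle disulfide bonds in folding chains, had folds above 0, with median log2 fold changes of 0.97 against sham control and 0.98 against all non-injured. Pdia6 was at 179 and 258 CPM in sham control 1 and 2, 154 in uninjured and 445, 435 and 589 in injured 1, 2 and 3. Every injured value was above every non-injured one. The group means were 219 ± 55.8 CPM (SD, n = 2) in sham control and 489.7 ± 86.3 (SD, n = 3) in injured. Its log2 fold change was 1.16 ± 0.40 (SE) against sham control, with an adjusted p of 0.865 by edgeR, and 1.31 ± 0.34 against all non-injured, with 0.452 by edgeR and 0.0136 by DESeq2. Over the 13 other settings tried for that comparison its adjusted p ran from 0.0136 to 1.

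Pdia4, a large disulfide isomerase found in chaperone complexes with BiP, was at 98.5 and 121 CPM in sham control, 157 in uninjured and 262, 184 and 281 in injured. Every injured value exceeded every other, with injured 2 and the uninjured library closest together. The log2 fold changes were 1.14 ± 0.39 and 0.94 ± 0.33 (SE) in the main and the second comparison. P4hb, which is both a disulfide isomerase and the beta subunit of prolyl 4-hydroxylase, was counted at 854 and 910.1 CPM in sham control, 508 in uninjured and 1647, 1184 and 1789 in injured, with no overlap, and its log2 fold changes were 0.80 ± 0.45 and 1.02 ± 0.39. Pdia3, which works on glycoproteins with calnexin and calreticulin, was at 400.1 and 641 CPM, 484 CPM and 576, 922 and 978 CPM in the same order of groups; injured 1 lay below sham control 2, and the log2 fold change against sham control was 0.67 ± 0.46.

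The 8 stress sensors and transcription factors had lower folds: 2 had one above 0 against sham control, and the median log2 fold change was -0.30. All injured libraries lay above the sham libraries for 0 of the 8 and below them for 2. Over all genes tested these shares were 11.9% and 9.12%, so with 8 genes such counts say little about the role. Against all non-injured, 1 was above 0 and the median was -0.17. Ddit3, the stress-induced transcription factor CHOP, was at 21.7 and 20.2 CPM in sham control, 18.8 in uninjured and 7.63, 9.15 and 12.5 in injured. All 3 injured values lay below all 3 non-injured ones, whose spread was small. The means were 20.9 ± 0.997 CPM (SD, n = 2) in sham control and 9.77 ± 2.51 (SD, n = 3) in injured, with log2 fold changes of -1.10 ± 0.63 and -1.05 ± 0.51 (SE) and adjusted p of 0.865 and 0.76 in edgeR's test.

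Atf4, the factor that PERK signalling makes cells translate, was at 114 and 216 CPM in sham control, 151 in uninjured and 96.7, 118 and 129 in injured. Sham control 1 lay within the injured range and the other non-injured libraries lay above it, and the log2 fold change was -0.52 ± 0.41 (SE). Xbp1, whose mRNA is spliced by IRE1, was counted at 341 and 325 CPM in sham control, 208 in uninjured and 372, 229.7 and 259 in injured, so the groups overlapped, with a log2 fold change of -0.22 ± 0.38; gene counts do not separate its spliced form. Ern1, which encodes IRE1 alpha itself, gave 14.3 and 13.8 CPM in sham control, 6.91 in uninjured and 7.56, 10.9 and 10.7 in injured, below both sham libraries but not below the uninjured one, with a log2 fold change of -0.53 ± 0.76. Eif2ak3, which encodes PERK, was named after its values were seen because of its spread: it was at 23.1 and 38.7 CPM in sham control, 36.5 in uninjured and 0.588, 26.4 and 43.7 in injured. Atf6, Creb3l1 and Creb3l2, membrane-bound factors released by cleavage in the Golgi, had log2 fold changes between -0.04 and 0.09, and their groups overlapped.

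Both members of ER-associated degradation, which returns misfolded proteins to the cytosol, had overlapping groups. Herpud1, a membrane scaffold of the degradation complex, was at 124 and 207 CPM in sham control, 189.8 in uninjured and 131, 97.6 and 149 in injured. Injured 1 and 3 lay between the highest and the lowest non-injured value, and the log2 fold change was -0.39 ± 0.40 (SE) against sham control. Edem1, a mannosidase-like protein that marks glycoproteins for disposal, was at 69.1 and 93.4 CPM, 30.4 CPM and 54.0, 67.8 and 114 CPM in the same groups, with a log2 fold change of -0.05 ± 0.45.

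All 3 translocon subunits had folds above 0, with a median log2 fold change of 0.97 against sham control and 1.10 against all non-injured. Sec61a1, the channel-forming subunit, was at 438 and 465 CPM in sham control, 324 in uninjured and 1049.6, 657 and 940.3 in injured, and its log2 fold changes were 0.97 ± 0.42 and 1.10 ± 0.35 (SE). Sec61b, a small tail-anchored subunit, gave 93.2 and 117 CPM in sham control, 47.3 in uninjured and 281, 223 and 183 in injured, with log2 fold changes of 1.12 ± 0.39 and 1.41 ± 0.41. For both genes every injured library was above every other library. Sec61g, the third subunit, was counted at 141 and 164 CPM in sham control, 63.4 in uninjured and 386, 260.4 and 143 in injured; injured 3, the library highest for most members, fell between the sham values, and the log2 fold change was 0.79 ± 0.49 against sham control.

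The COPII coat and its collagen receptor gave smaller folds, with a median log2 fold change of 0.52 against sham control and 0.60 against all non-injured. Sec13, a subunit of the outer coat, was at 98.9 and 111 CPM in sham control, 81.7 in uninjured and 181, 173 and 198 in injured. Its values lay close together within each group, with 105 ± 8.25 CPM (SD, n = 2) in sham control and 184 ± 12.5 (SD, n = 3) in injured, no overlap, and log2 fold changes of 0.81 ± 0.34 and 0.92 ± 0.28 (SE). Its partner Sec31a overlapped, at 298 and 409.6 CPM in sham control, 299 in uninjured and 415, 393 and 549.9 in injured, with a log2 fold change of 0.36 ± 0.39.

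Of the inner coat, Sec23a, loss of which disturbs collagen secretion and skull formation, stood at 39.3 and 120.0 CPM in sham control, 65.6 in uninjured and 74.4, 123 and 252 in injured, with a log2 fold change of 0.91 ± 0.69 (SE). Sec24d, the cargo-binding adaptor, was at 121 and 269 CPM, 161 CPM and 199.7, 233 and 407 CPM in the same groups, with a log2 fold change of 0.52 ± 0.52. In both genes sham control 2 was above 1 or more injured libraries. Mia3, which encodes TANGO1, the receptor that fits procollagen into COPII carriers, had the lowest fold of the 5, 0.11 ± 0.82 on the log2 scale against sham control, and its groups overlapped.

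All 8 genes of procollagen hydroxylation and folding had folds above 0. For 4 of them (50%) all injured libraries lay above the sham libraries, against 11.9% of all genes tested. The median log2 fold change was 0.93 against sham control and 1.11 against all non-injured. Serpinh1, which encodes the collagen chaperone HSP47, was at 720.4 and 787 CPM in sham control, 475 in uninjured and 2012, 1296 and 1793 in injured. The lowest injured value was well above the highest non-injured value. Means were 754 ± 47.3 CPM (SD, n = 2) in sham control and 1701 ± 367 (SD, n = 3) in injured. Its log2 fold change was 1.17 ± 0.46 (SE) against sham control, with an adjusted p of 0.865 by edgeR, and 1.36 ± 0.39 against all non-injured, with 0.452 by edgeR and 0.015 by DESeq2. Over the same 13 settings its adjusted p ran from 0.0150 to 1.

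Fkbp10, a prolyl isomerase of the ER that acts on collagen and is mutated in a form of brittle bone disease, was at 315 and 593 CPM in sham control, 192 in uninjured and 1131, 662 and 1034 in injured. Injured 2 exceeded sham control 2 only narrowly, while the other injured libraries were far above it, and the log2 fold changes were 1.05 ± 0.49 and 1.36 ± 0.49 (SE). P4ha1, the main catalytic subunit of prolyl 4-hydroxylase, gave 99.9 and 187 CPM in sham control, 106 in uninjured and 200.4, 217 and 430.3 in injured, with log2 fold changes of 0.98 ± 0.52 and 1.10 ± 0.43 and no overlap. P4ha3, another catalytic subunit, was at 31.5 and 76.8 CPM, 35.9 CPM and 66.8, 139.9 and 121 CPM in the same groups, where injured 1 lay below sham control 2, with a log2 fold change of 1.01 ± 0.55 against sham control.

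Of the other 4 genes of this role, P4ha2, a further catalytic subunit, had a log2 fold change of 0.88 against sham control, and its sham values lay far apart, at 84.2 and 369.6 CPM. Ppib, the collagen prolyl isomerase cyclophilin B, had 0.64 with no overlap, but 57.6% of its annotated exon bases lie over Snx22 on the opposite strand, and the sources used here do not say whether reads were counted by strand. Fkbp14 had 0.78, and Crtap, a partner of prolyl 3-hydroxylase, had 0.04; both overlapped. Pcolce, which acts outside the cell by enhancing removal of the procollagen C-propeptide, was at 850.2 and 1279 CPM in sham control, 979 in uninjured and 1250.0, 899.8 and 935 in injured, with a log2 fold change of -0.05 ± 0.44 (SE).

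**Figure D4:**
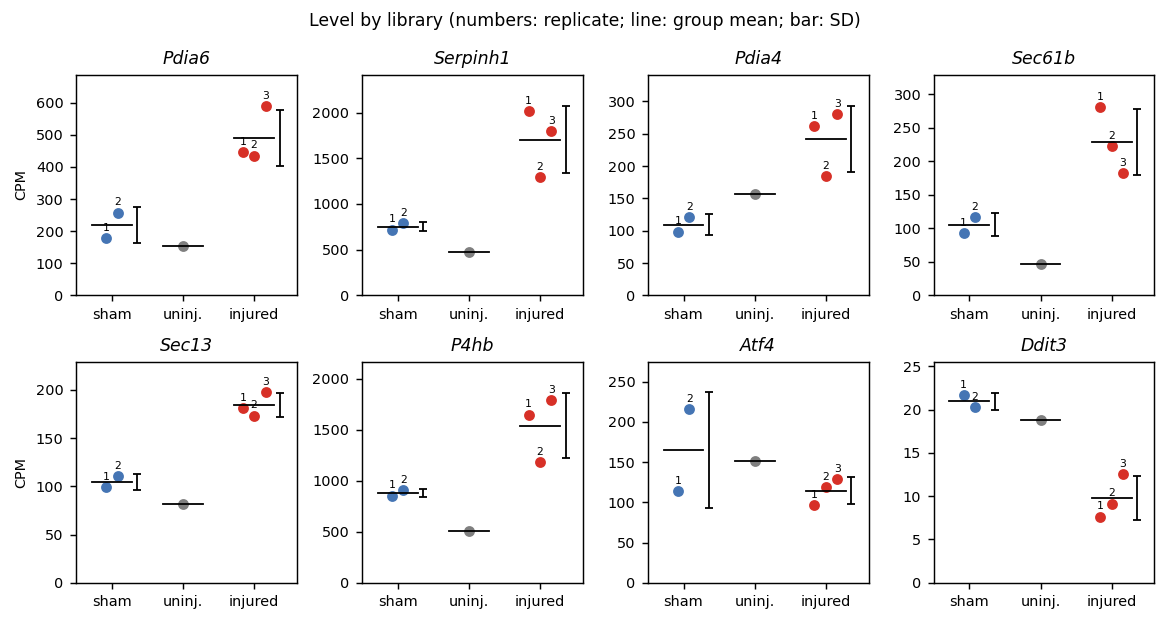
Level in CPM (y axis, from 0) of 8 members in the sham control, uninjured and injured libraries (x axis), as 1 point per library with its replicate number, the group mean (line) and the SD (bar). The 3 injured points of Pdia6, Serpinh1, Pdia4, Sec61b, Sec13 and P4hb lie above all others, those of Ddit3 below all others, and Atf4 overlaps. The 8 genes were picked by hand and do not stand for the 42 members. Of these, 14 (33.3%, against 9.23% of all genes) had all injured libraries above all others, 1 had all below, and 27 overlapped.

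Other genes of the same pathways were taken in 6 lists. Of 20 other procollagen-modifying and processing genes tested, 15 had a fold above 0 against sham control, 4 had an unadjusted p under 0.05 in the higher direction and 1 in the lower (Pcolce2, named after its values were seen, at -1.32 on the log2 scale), and the median log2 fold change was 0.67. Of 32 genes of translocation, signal cleavage and N-glycosylation the fold was above 0 for 30, with 2 such p in the higher direction and a median of 0.57. For 23 genes of COPII and ER-Golgi traffic the counts were 20 and 2, with a median of 0.48; Mia2, also on that list, had 0 counts in every library. For 31 further folding and quality control genes they were 23 and 3, with 0.42. The 20 other genes of the unfolded protein and integrated stress responses had 10 folds above 0, 0 such p in either direction and a median of 0.03. The 15 procollagen chains, the cargo itself, had 13 folds above 0, 1 such p and a median of 0.40. In list order, such p in the higher direction made up 20%, 6.25%, 8.7%, 9.68%, 0% and 6.67%, against 2.44% of all genes. In the lower direction the share over all genes was 2.2%. No gene of the 6 lists passed edgeR's adjusted threshold in either comparison. Against sham control DESeq2 called 1, Col9a1; against all non-injured it called 5, namely P3h1, Plod3, Kdelr3, Txndc5 and Col9a1. In that comparison an unadjusted edgeR p under 0.05 was found in the higher direction for 7, 8, 5, 7, 0 and 2 genes of the 6 lists in that order. These are 35%, 25%, 21.7%, 23.3%, 0% and 13.3% of the lists, against 3.71% of all genes. In the lower direction such a p was found for 2 procollagen-modifying and processing genes, Pcolce2 and Adamts2. It was also found for 1 stress response gene, Atf3, at -1.39 on the log2 scale. Over all genes the share in the lower direction was 3.72%.

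**Figure D5:**
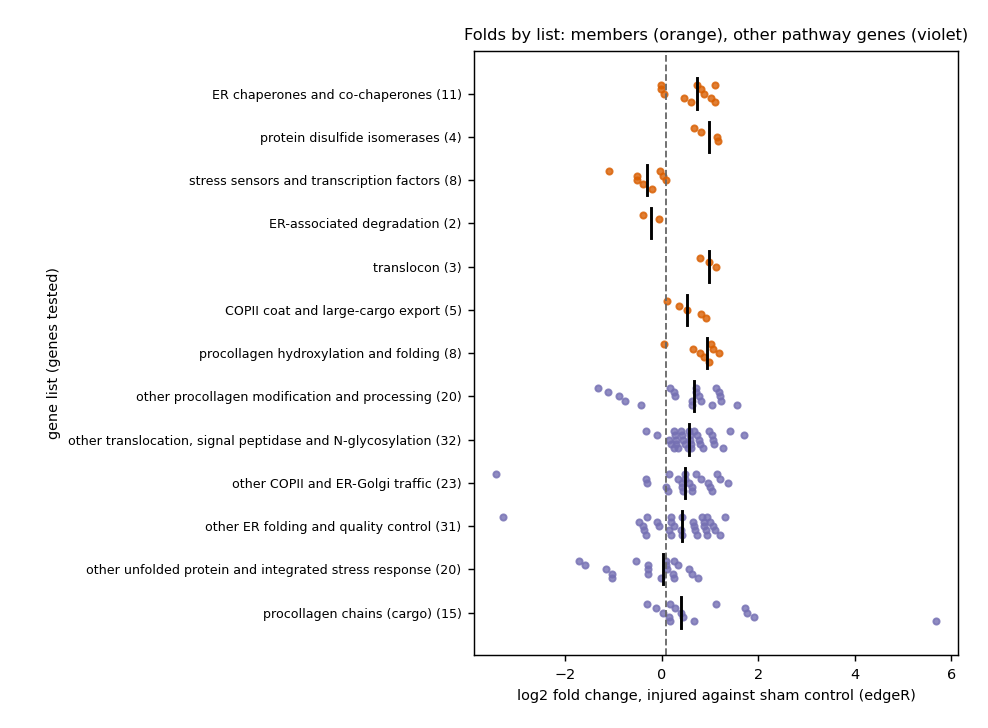
Log2 fold change (x axis), injured against sham control, of each gene (points) in the members' roles (orange; Pcolce, alone in its role, is left out) and in the 6 further pathway lists (violet), with each list's median as a black line and the median of all genes tested, 0.09, as a dashed line. The list medians lie above that line except in the sensors and transcription factors, in ER-associated degradation and in the other unfolded protein response genes.

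The 3 genes of the procollagen-modifying list with the smallest unadjusted p were P3h1, Plod3 and Fkbp11, while others of that list, such as P3h2 (-0.90) and Colgalt2 (-1.13), both named after their values were seen, had log2 fold changes below 0. Plod3, which hydroxylates and glucosylates collagen lysines, was at 51.7 and 145 CPM in sham control, 43.1 in uninjured and 342, 209.9 and 321 in injured, with log2 fold changes of 1.56 ± 0.55 and 1.86 ± 0.53 (SE). P3h1, the prolyl 3-hydroxylase that works with Crtap, was at 59.2 and 101 CPM, 43.5 CPM and 191, 155 and 219 CPM in the same groups, with a log2 fold change of 1.23 ± 0.42 against sham control, and Fkbp11 had 1.12. For Plod3 and P3h1 every injured library was above every other. Kdelr3, a receptor that returns ER proteins from the Golgi, gave 149 and 205 CPM in sham control, 166 in uninjured and 449, 305 and 414 in injured, and a log2 fold change of 1.14 ± 0.40; Kdelr2 had 0.99 and Sec22b, a vesicle fusion protein, 0.96.

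In the remaining lists the same rule, the smallest unadjusted p, named Ssr2 (1.07 on the log2 scale against sham control), Ostc (1.06) and Spcs1 (0.85), which serve translocation, glycosylation and signal cleavage. It named Pdia5 (1.20), Txndc5 (1.09) and Mogs (1.06) among folding genes. Pdia5, a disulfide isomerase, was at 44.1 and 43.1 CPM in sham control, 11.3 in uninjured and 109.8, 102 and 89.9 in injured, so every injured value exceeded every other. Among stress response genes the rule named Atf3, Trib3 and Nupr1, all with folds below 0. The list itself was split, with 10 folds above 0 and 10 below. All injured libraries were above all others for 2 of its genes, Asns and Atf6b, or 10%, against 9.23% of all genes. Both are named after their values were seen, and their log2 fold changes against sham control were 0.62 and 0.25. Atf3, a stress-induced transcription factor, was at 303 and 666 CPM in sham control, 732 in uninjured and 179.8, 153 and 319 in injured, with injured 3 just above sham control 1, and a log2 fold change of -1.16 ± 0.52 (SE). Trib3, an ATF4 and CHOP target, was at 27.9 and 8.95 CPM, 19.1 CPM and 5.52, 4.21 and 8.52 CPM in the same groups, all injured values below all others, with -1.59 ± 0.82, and Nupr1 had -1.03. The lowest log2 fold change of that list, -1.72 ± 1.07, was that of Atf5, a transcription factor related to ATF4, named after its values were seen, at 5.19 and 9.58 CPM in sham control, 13.9 in uninjured and 2.33, 1.47 and 2.85 in injured.

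The procollagen chains did not separate the groups by their sum, which was 52793 and 169390 CPM in sham control 1 and 2, 55829 in uninjured, and 122340, 93344 and 199590 in injured. Col1a1, the main chain of tendon and bone collagen, was at 17371 and 67512 CPM in sham control, 18486 in uninjured and 39040.0, 29215 and 61146 in injured, with a log2 fold change of 0.02; it is named after its values were seen. Col9a1, a cartilage collagen chain, was at 5.08 and 12.5 CPM, 9.15 CPM and 257, 76.0 and 1030.3 CPM in the same groups, with a log2 fold change of 5.69 ± 1.31 (SE). Col12a1 had 1.75 and Col11a1 1.91.

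Chondrocyte markers, by their mean level, were also higher in every injured library than in any other. Their mean log2(CPM + 1) was 5.38 and 8.16 in sham control 1 and 2, 6.45 in uninjured and 8.63, 8.18 and 10.64 in injured. Injured 2 exceeded sham control 2 only narrowly. By sum the groups overlapped, at 6294 to 31431 CPM in sham control, 8670 in uninjured and 10731 to 57261 in injured. Of these markers 7 of 10 had a fold above 0 against sham control, while Sox9, Comp and Col10a1 had folds below 0. Cnmd and Col9a1 had an unadjusted edgeR p under 0.05, both higher, and DESeq2 called both. The part of cartilage-forming cells in the members' values was not tested. Skeletal muscle markers were low but also highest in the injured libraries by mean level, at 0.89 and 0.59 in sham control 1 and 2, 0.81 in uninjured and 1.57, 1.98 and 1.15 in injured. All 10 had a fitted fold above 0 against sham control and 2, Ckm and Mb, had an unadjusted p under 0.05; DESeq2 called 1, Mb. Both were at 0 in both sham libraries, from 1 to 7 of the 10 were at 0 in each library, the sum was 12.3 to 44.3 CPM in sham control, 17.1 in uninjured and 29.1 to 87.5 in injured, and the part of muscle RNA in the members' values was not tested. Osteoblast markers summed to 20759 to 90776 CPM in sham control, 29949 in uninjured and 34587 to 68042 in injured. Tendon markers summed to 4376 to 9540, 8265 and 4226 to 6819 CPM, with overlap in both lists. Most of the osteoblast sum in every library was Col1a1, at 17371 to 67512 CPM. Of the 10 osteoblast markers, 6 had a fold above 0 against sham control and 4 below. Bglap had an unadjusted edgeR p under 0.05 there, at -2.65 on the log2 scale. DESeq2 called Phex and Sost, both higher and each counted in 1 library, and against all non-injured Bglap, lower. The part of bone-forming cells in the members' values was not tested. Plasma cells also carry a large secretory apparatus: of 10 B and plasma cell markers 2 to 8 were at 0 in each library, Jchain was at 0 in all 6, and their sum was 153 to 225 CPM in sham control, 115 in uninjured and 146 to 231 in injured. Most of that sum in every library was Sdc1, at 86.1 to 192 CPM, which many other cells express, so the sum does not measure plasma cells. Macrophage markers summed to 48.02 to 3152 CPM in sham control, 194 in uninjured and 39.5 to 5156 in injured. Neutrophil markers summed to 24.1 to 9970, 793 and 4.75 to 6339 CPM in the same groups. Injured 3, with the highest summed level of the members, held the lowest sum of both. Injured 1, where the members summed to 14525 CPM, held the highest sum of both among the injured libraries. The part of leukocyte RNA in the members' values was not tested. Endothelial markers summed to 0.746 to 1654 CPM in sham control, 812 in uninjured and 77.8 to 312 in injured. All 10 had folds below 0 against sham control, with 0 unadjusted edgeR p under 0.05. Schwann cell markers summed to 380.0 to 3750, 229 and 101 to 272 CPM in the same groups. Against sham control 9 of 10 had folds below 0. For 6 such a p was found in the lower direction, against 2.2% of all genes. DESeq2 called 3 of them, Mbp, Prx and Mag. Against all non-injured such a p was found for 2, against 3.72% of all genes. The part of endothelial or Schwann cell RNA in the members' values was not tested. Leaving out sham control 1 and injured 1, which held the highest sums of erythroid, macrophage and neutrophil markers, gave a median log2 fold change of 0.29 over the members, beside 0.20 over all genes, with an unadjusted p under 0.05 in the higher direction for 1 member (2.38%), against 7.33% of all genes. Against all non-injured the same step gave a median of 0.66, beside 0.04 over all genes, and 9 such members (21.4%), against 6.03% of all genes. Against sham control this step leaves 1 sham library, with the spread again taken from the injured group alone.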

How the data were processed

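RNA from sorted cells of 6 libraries was measured; per the labels' protocols, 150 pg of RNA went into a SMARTer ultra-low-input synthesis followed by amplification. The authors deposited whole-number counts per gene symbol, used here as unscaled counts, since the column totals differ; 0 columns were left unmatched to a sample. Salmon 0.12.0, DESeq2 1.22.2 and DESeq, and the builds GRCm38.p6 and mm9, are named without a role, per the submitters' processing notes. The sources used here give neither the annotation nor the use of strand. Without molecular identifiers, amplified copies of 1 molecule are counted separately. Counts were tested with edgeR 4.0.16 (limma 3.58.1, R 4.3.3): TMM scaling, filterByExpr with a minimum count of 10, the quasi-likelihood F test and Benjamini-Hochberg adjustment over all genes tested, with a threshold of 0.05. Injured against sham control was fitted on all 6 libraries as 3 groups, with 3 residual degrees of freedom, and injured against all non-injured as 2 groups, with 4. Standard errors were derived from the F statistic. DESeq2 1.42.0, limma-voom, other scalings and filters, the replicate block and leaving out libraries were the alternatives. The scripts were tested on simulated counts. Members and lists were chosen with earlier results of these data known. In each role the up to 4 members with the smallest unadjusted p against sham control, and up to 3 genes of each further list, are given in full. Exon overlaps come from GENCODE M21, which may differ from the annotation behind the counts.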

Additional observations from a re-analysis of the deposited data

How the results depend on the processing

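With 2 sham control libraries from 150 pg of RNA each, the spread between them limits every result. In injured against sham control, members with an unadjusted p under 0.05 in the higher direction numbered 8 with library size alone as the scale (19.0%, against 3.21% of all genes). They numbered 10 with DESeq2 (23.8% against 5.37%) and 8 with limma-voom (19.0% against 3.0%). DESeq2 gave 1 such member in the lower direction, where 715 of 16752 genes had such a p. Without the blood-rich libraries sham control 1 and injured 1 the members' median log2 fold change was 0.29, beside 0.20 over all genes. With library size as the only scale, the median of all genes went from 0.09 to 0.23 and that of the members from 0.65 to 0.80. Genes called numbered 3 with no filter, 369 with DESeq2 and 1 with limma-voom. In injured against all non-injured these were 5, 345 and 7, and DESeq2 called 2 members. DESeq2 gave 1 member an unadjusted p under 0.05 in the lower direction there, where 832 of 14110 genes had one. Without the blood-rich libraries 22 members (52.4%, against 23.9% of all genes) had all injured libraries above the others. Against sham control the same step gave the same number beside 38.6% of all genes, with 1 sham library left. Leaving out each replicate in turn gave, against sham control, 0 to 7 members with such a p in the higher direction, a median of 0.30 to 0.96 and 15 to 29 members with no overlap, and against all non-injured 5 to 13, 0.44 to 0.87 and 14 to 23. The shares over all genes moved too. Against sham control, leaving out each sham or injured library put all injured libraries above the others for 16.8% to 28.6% of all genes. The 15 members without sham control 1 stood beside 25.3%, and the 29 without sham control 2 beside 28.6%, each with 1 sham library left. Against all non-injured the share was 12.2% to 16.3%, and 2.77% to 5.8% of all genes had such a p. Of 52 log2 fold changes of members given in full, 44 kept their sign under every alternative run. With library size as the scale Edem1 (0.11) and Pcolce (0.082) turned against sham control, and Pcolce (0.038) and Xbp1 (0.026) against all non-injured, where Ern1 (0.062) turned without the blood-rich libraries. Leaving out each replicate in turn, Herpud1 ranged from -0.71 to 0.023, Edem1 from -0.43 to 0.18, Pcolce from -0.31 to 0.28 and Atf4 from -0.91 to 0.012 against sham control, and Edem1 from -0.10 to 0.66, Pcolce from -0.18 to 0.17 and Xbp1 from -0.26 to 0.11 against all non-injured. Against sham control the sign turned without sham control 2 for all 4 of these, without injured 1 for Edem1 and without injured 2 for Edem1 and Pcolce. Against all non-injured it turned for Edem1 without the uninjured library or injured 3, for Pcolce without sham control 2, injured 2 or injured 3, and for Xbp1 without either sham library, injured 2 or injured 3. The cause was not tested. The replicate block, for which the titles' numbers are the only link, called 0 genes. It gave 5 members (11.9%) an unadjusted edgeR p under 0.05 in the higher direction, against 1.62% of all genes. The members' median was 0.47, beside 0.09 over all genes. Deviations of same-numbered libraries correlated at 0.35 and 0.01, and those of sham control 2 and injured 3 at 0.43. With 2 sham libraries the deviations mirror one another, so these values cannot decide whether the numbers mark pairs. The numbers were not taken as pairs.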
